A study of Mus musculus with 212 samples.

Results

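Loss of the clock gene Bmal1 was compared with WT over a time course labelled AM in cultured mouse skin fibroblasts. The course held 17 Bmal1-/- libraries and 17 WT libraries, 1 at each time label from CT0 to CT48 in steps of 3 h, which together make 34 of the 212 libraries of the series. Members were taken by the genotype and the course named in the labels, and libraries of equal time label were set against each other. All cultures were of the C57BL/6 strain, had grown to confluence, and had received 100 nM dexamethasone, a glucocorticoid that sets cultured clocks to a common phase, for 15 min. Cells then stayed in the dark in medium buffered with HEPES, and sampling began 48 h after the dexamethasone. The series title asks about daily rhythms when Bmal1 is missing, and the labels do not say what AM stands for or what differs from the course labelled PM. They give 3 wells per time point and genotype, but not whether wells were pooled, how many cell preparations or clones stood behind each genotype, or which part of the gene was deleted. The p-values below therefore rest on how libraries of 1 course vary, and say nothing of the variation from preparation to preparation.

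BMAL1, encoded by Arntl, pairs with CLOCK or NPAS2 and binds E-boxes, short DNA elements in the control regions of many genes. The pair activates the Per and Cry genes, whose proteins return to block it, and the Rev-erb genes, whose proteins repress Arntl through ROR elements. The PAR bZIP factors DBP, TEF and HLF carry the rhythm to output genes, and the dermal fibroblasts that keep this clock in culture also make most of the collagen and matrix of the skin.

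Levels are FPKM, fragments scaled to the length of the transcript and to the mapped reads of the library. Differences are log2 fold changes of FPKM + 1, Bmal1-/- minus WT, from a limma model in which time labels were blocks. A gene was called at a Benjamini-Hochberg adjusted p under 0.05 and a difference of at least 2-fold, and "rose" and "fell" are used of called genes only. Of 47631 genes in the table, 13137 averaged 1 FPKM or more across the 34 libraries and were tested. Estimated depth ran from 9.96 to 24.59 M reads in WT (median 18.61) and from 13.72 to 26.92 M in Bmal1-/- (median 22.66). The shallowest libraries were WT at CT36, with 9.96 M, and WT at CT12, with 10.3 M. The estimate for CT36 is unsure: 26.2% of the low values behind it came to a single read, against 58.8% or more in the other 33 libraries, and it had the fewest genes above 0, 16896 against 18070 at CT12. Without the CT36 pair the counts of called genes were 903 higher and 1031 lower, and without both pairs 904 and 1022, the latter an alternative chosen after seeing the data, against 902 and 1034 with them.

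Fibroblast identity was checked first. All 10 fibroblast markers were tested, and their summed level ran from 14188 to 19193 FPKM over the WT libraries and from 16327 to 22459 over the Bmal1-/- libraries. Col3a1 averaged 7197 FPKM in WT and 8712 in Bmal1-/-, Col1a1 2328 and 2308, and Vim 824 and 1343. S100a4 rose by 1.57, and Pdgfra and Lum fell by 1.15 and 1.16. Defining markers of other cells were near 0: Krt5, Krt14, Ptprc, Adgre1, Myod1 and Sox10 all averaged below 0.01 FPKM in both genotypes. In libraries of bulk culture, fewer cells of a type and less RNA per cell cannot be told apart.

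Some markers of other cell types did move, and their part in the results below was not tested. Of 6 tendon markers 4 were tested and 3 fell, and the summed level of the list went from 213 to 357 FPKM in WT to 14.9 to 22.8 in Bmal1-/-. In WT most of it was Tnmd. Of 6 adipocyte markers 3 were tested, Pparg, Lpl and Fabp4, and all rose. The sum of the list went from 45 to 72.7 FPKM in WT to 137 to 258 in Bmal1-/-, with Adipoq at 0.0105 and 0.402 FPKM on average. Of 9 melanocyte and Schwann cell markers only Mlana was tested. It fell from 8.87 ± 1.89 FPKM (SD, n = 17) to 0.0919 ± 0.133, while Dct, Tyrp1 and Tyr stayed below 0.05 in both genotypes. Trp63, Kdr, Lyz2 and Runx2, each the 1 called gene of the keratinocyte, endothelial, leukocyte and bone lists, fell by 1.37, 1.80, 1.41 and 1.33. The summed level of the leukocyte list was nevertheless higher in Bmal1-/-, 15.9 to 21.4 FPKM against 12.1 to 16.2 in WT, with Cd14 at 0.94 and every Bmal1-/- library above WT. The sums of the keratinocyte, endothelial and bone lists had medians of 3.83, 4.99 and 31.8 FPKM in WT and 2.5, 1.54 and 25.2 in Bmal1-/-. The Y-linked genes Ddx3y, Eif2s3y, Kdm5d and Uty were read in both genotypes, between 4.1 and 34.3 FPKM on average.

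The libraries fell apart by genotype. The first principal component held 67.7% of the variance and set all 17 WT libraries apart from all 17 Bmal1-/- libraries, and the second, with 3.5%, set WT at CT36 apart, at 55.25 against -16.73 to 11.2 for all others. Of 13137 genes, 1936 (14.7%) were called, 902 (6.87%) higher and 1034 (7.87%) lower in Bmal1-/-. Each count of called list members below is to be read beside these shares. An adjusted p under 0.05 alone was met by 10700 genes (81.4%). Among called genes, 1848 (95.5%) had the same sign in 17 of 17 pairs of equal time label, against 49.8% of all tested genes, and 1752 (90.5%) had groups that did not overlap, against 34.4% of all tested genes. A difference of at least 2 on the log2 scale was reached by 203 genes higher and 258 lower, and one of at least 5 by 9 higher and 14 lower.

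**Figure D1:**
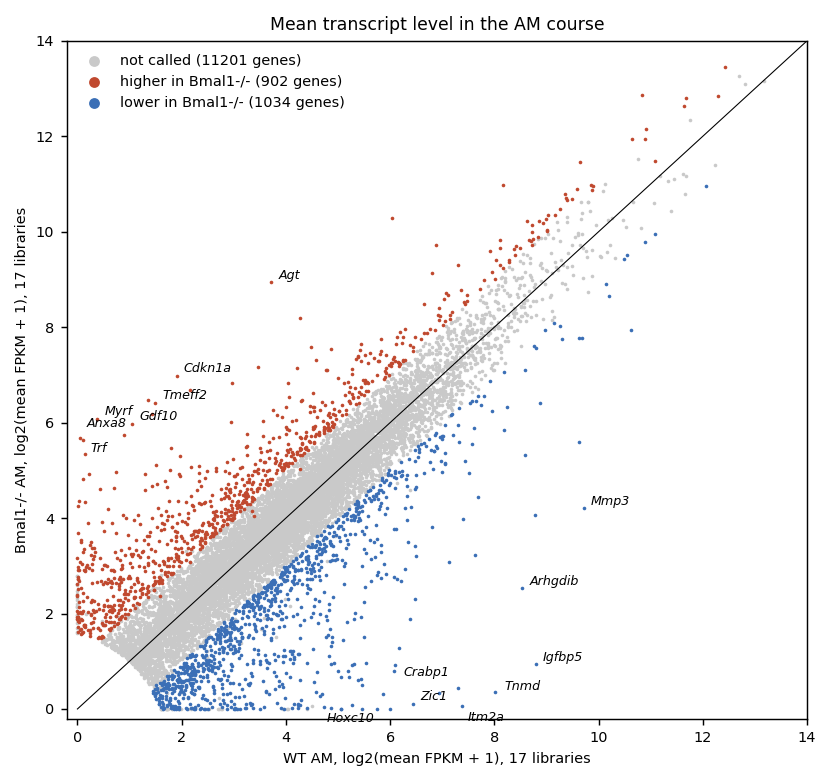
Mean level of each tested gene in the AM course, WT on the x axis and Bmal1-/- on the y axis, both as log2(mean FPKM + 1) over 17 libraries. Each point is a gene, coloured where called (902 higher, 1034 lower), and the line marks equal levels; Igfbp5 and Tnmd lie far below it and Agt and Cdkn1a far above.

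The 12 named falls are those of greatest size on log2(FPKM + 1) under the naming rule, which leaves out predicted genes, Rik clones and pseudogenes. On this scale only a gene with a high WT level can fall far. Igfbp5, a secreted binding protein of insulin-like growth factors (ENSMUSG00000026185, chromosome 1, 72857932 to 72874884, GRCm38), had a lowest, median and highest value of 252, 460 and 566 FPKM in WT and of 0.451, 0.946 and 1.66 in Bmal1-/-. The ranges were far apart, and the difference was -7.85 ± 0.11 (SE; adjusted p = 3.11e-22). Tnmd, the tendon membrane protein tenomodulin (chromosome X, 133850980 to 133865577), ran from 186 to 335 FPKM in WT and from 0.0687 to 0.506 in Bmal1-/-, a difference of -7.64 ± 0.06. Itm2a, a small membrane protein, fell by 7.31, from 165 ± 13 to 0.0381 ± 0.0329 FPKM. Crabp1, which binds retinoic acid in the cell, fell by 6.87, and Art3, an ADP-ribosyltransferase family member, by 6.61. Zic1 (-6.32), Arhgdib (-6.02), Grem1 (-5.52), Mmp3 (-5.51), Enpp2 (-5.28), Hoxc10 (-5.19) and Anpep (-5.14) completed the 12 named falls. Enpp2 makes the lysophospholipid signal of autotaxin, and Anpep is the surface aminopeptidase N.

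The 12 named gains started from WT means of at most 12.2 FPKM, that of Agt. Myrf, a membrane-bound transcription factor known from myelin (chromosome 19, 10208272 to 10240748), ran from 0.183 to 0.487 FPKM in WT, with a median of 0.279, and from 60.5 to 75.4 in Bmal1-/-, with a median of 66.2. No WT library came near the lowest Bmal1-/- library, and the difference was 5.71 ± 0.04 (adjusted p = 2.32e-27). Anxa8, a membrane-binding annexin, rose by 5.6, and Trf, the iron carrier transferrin, by 5.52, from a WT median listed at 0 to a median of 49.3 FPKM. Agt, the precursor of angiotensin, had a lowest, median and highest value of 10.3, 11.9 and 16.1 FPKM in WT and of 329, 497 and 562 in Bmal1-/-. Clca3a1 (5.17), Cd55 (5.13), Cdkn1a (5.11), Gdf10 (4.96), Tmeff2 (4.92), Prg4 (4.84), Stxbp2 (4.81) and Psrc1 (4.77) also rose in every pair. Stxbp2, a factor of vesicle release, was the least even of these in WT, from 0.644 FPKM at CT6 to 11.2 at CT36, yet its lowest Bmal1-/- value was 83.8.

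Among the clock activators, the transcript of the targeted gene itself was not lost. Arntl (ENSMUSG00000055116, chromosome 7, 113207465 to 113314126) had a lowest, median and highest value of 3.62, 7.38 and 9.59 FPKM in WT and of 5.99, 6.64 and 7.25 in Bmal1-/-. The Bmal1-/- values lay inside the WT range, and the difference in level was -0.11 ± 0.07 (adjusted p = 0.194). A gene-level value covers the entire transcript and the deleted part is not given, so this value does not check the genotype label. Npas2, which can stand in for CLOCK as a partner, rose by 1.68 ± 0.08, from a range of 0.666 to 2.8 FPKM to one of 6.2 to 9.05. Clock differed by -0.86 ± 0.04 (17 of 17 pairs lower, 12.3 ± 1.09 to 6.32 ± 0.604 FPKM), short of the 2-fold limit although the ranges did not overlap. Arntl2, the paralogue of Arntl, differed by 0.94 ± 0.12 with overlapping ranges, and passed the limit, at 1.11, with a pseudocount of 0.1.

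The repressors moved in opposite directions. Both cryptochromes rose: Cry1 had a lowest, median and highest value of 4.31, 6.46 and 9.34 FPKM in WT and of 21.8, 24.6 and 26 in Bmal1-/- (1.81 ± 0.07), and Cry2 ran from 5.17 to 7.97 in WT and from 15.5 to 19 in Bmal1-/- (1.27 ± 0.03). Neither gene's ranges overlapped. Per3 fell by 1.53 ± 0.11, from 5.93 ± 2.32 to 1.29 ± 0.271 FPKM, and Ciart, a repressor that binds the CLOCK and BMAL1 pair, by 1.13 ± 0.07, from 3.03 ± 0.706 to 0.835 ± 0.241. Per1 and Per2 differed by 0.54 and 0.74 and were not called, nor were the E-box repressors Bhlhe40 (0.36) and Bhlhe41 (-0.25). Per2 had a single high library in each genotype, 7.3 FPKM at CT30 in WT and 8.88 at CT39 in Bmal1-/-.

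The canonical E-box, CACGTG, reads the same on both strands, and was searched in the 250 bases before the annotated start of each gene (RefSeq, GRCm38.p6). It was present in 6.02% of 32851 such windows. Of 21 activator, repressor, receptor and PAR bZIP genes listed, 18 had a window and 5 of these held the motif. Their upstream windows are printed below, 5′ to 3′ on the strand of the gene, with each CACGTG in capitals, because the opposite changes of these genes can then be set beside the elements that BMAL1 is known to bind. They lie at chr3:95882229-95882478 (Ciart, minus strand), chr10:85185055-85185304 (Cry1, minus), chr11:69098699-69098948 (Per1, plus), chr6:145865421-145865670 (Bhlhe41, minus) and chr15:81802423-81802672 (Tef, plus, the first of its 2 windows).
Ciart: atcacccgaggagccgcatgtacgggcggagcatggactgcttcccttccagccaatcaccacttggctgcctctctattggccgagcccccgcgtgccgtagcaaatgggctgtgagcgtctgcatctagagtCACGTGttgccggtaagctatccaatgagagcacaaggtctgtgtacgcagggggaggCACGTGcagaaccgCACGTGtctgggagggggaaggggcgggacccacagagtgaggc
Cry1: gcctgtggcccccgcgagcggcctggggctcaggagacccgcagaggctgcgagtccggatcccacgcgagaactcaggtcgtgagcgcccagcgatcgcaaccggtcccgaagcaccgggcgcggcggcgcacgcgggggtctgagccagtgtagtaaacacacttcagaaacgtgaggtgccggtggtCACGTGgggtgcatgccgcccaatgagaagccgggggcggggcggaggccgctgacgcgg
Per1: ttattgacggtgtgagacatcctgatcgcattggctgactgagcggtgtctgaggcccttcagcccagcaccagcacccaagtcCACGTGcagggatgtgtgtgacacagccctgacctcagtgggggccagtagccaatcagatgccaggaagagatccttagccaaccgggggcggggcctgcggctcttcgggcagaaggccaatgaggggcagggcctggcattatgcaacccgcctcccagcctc
Bhlhe41: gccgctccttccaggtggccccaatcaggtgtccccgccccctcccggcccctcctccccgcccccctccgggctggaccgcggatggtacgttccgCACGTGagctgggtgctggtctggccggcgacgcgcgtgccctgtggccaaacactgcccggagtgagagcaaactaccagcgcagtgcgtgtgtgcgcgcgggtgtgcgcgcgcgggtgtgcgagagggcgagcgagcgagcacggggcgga
Tef: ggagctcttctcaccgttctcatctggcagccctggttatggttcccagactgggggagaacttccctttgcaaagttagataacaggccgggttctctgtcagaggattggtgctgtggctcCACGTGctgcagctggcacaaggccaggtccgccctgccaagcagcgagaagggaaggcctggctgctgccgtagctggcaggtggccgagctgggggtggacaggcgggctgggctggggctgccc
Ciart, which fell, held 3 copies, starting at -116, -58 and -44 from the transcript start, and 0.0609% of all windows held 3 or more. Cry1, which rose, held 1 at -60. Per1 and Bhlhe41, which were not called, held 1 each, at -166 and -153. Tef, also not called, held 1 in each of its 2 windows, at -127 in the one printed and at -138 in the other. Over all tested genes with a window, 10.1% held the motif, against 8.33% of those called higher and 8.59% of those called lower, so neither share lay above that of tested genes.

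The Rev-erb receptors, which close the loop onto Arntl, both fell. Nr1d1 had a lowest, median and highest value of 8.4, 17.3 and 23.4 FPKM in WT and of 4.19, 5.46 and 6.97 in Bmal1-/- (-1.36 ± 0.12). Nr1d2 (chromosome 14, 18204054 to 18239127) had 5.59, 11.1 and 16.3 in WT and 0.507, 0.791 and 1.16 in Bmal1-/- (-2.74 ± 0.09; adjusted p = 3.1e-16). Every Bmal1-/- library lay below the WT trough for both receptors. Rora, which activates through the same elements, differed by -0.14, and Rorb did not reach 1 FPKM.

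Of the D-box factors, Hlf fell by 2.79 ± 0.13, from 14.6 ± 2.7 to 1.36 ± 0.942 FPKM. Dbp differed by -0.59, Tef by 0.67 and Nfil3, a repressor at the same D-box elements, by -0.02, and none of these was called. Among the enzymes that set the stability of clock proteins, the deubiquitinase Usp2 rose by 1.26. Of 8 further E-box outputs tested, the mitotic brake Wee1 (-1.22), Pdk4 (-1.76), which slows sugar use by mitochondria, and Nampt (-1.18), which makes NAD, fell, and Timp3, an inhibitor of matrix proteases, rose (1.67).

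The daily swing differed between genotypes for a few clock genes, with WT the larger in each. The test asked whether the 24 h cosine and sine terms differed between genotypes, and 5 of 13137 genes (0.0381%) were called, all of them clock genes, with 1256 (9.56%) at an unadjusted p under 0.05. Nr1d1 had a fitted amplitude, from mid-level to peak in log2, of 0.63 ± 0.04 (SE) in WT and 0.08 ± 0.04 in Bmal1-/- (adjusted p = 9.88e-07), peaking at 20.3 h in WT. Dbp had 0.79 ± 0.06 and 0.08 ± 0.06 (adjusted p = 1.71e-06), with its WT peak at 23.7 h. Cry1 had 0.33 and 0.04 (adjusted p = 0.00119), Arntl 0.35 and 0.02 (adjusted p = 0.00563) and Nr1d2 0.50 and 0.05 (adjusted p = 0.0193, and 0.341 with a pseudocount of 0.1). The WT peak of Arntl fell at 12 h, that of Cry1 at 6.2 h and that of Nr1d2 at 23.7 h. The WT swing of Dbp reached from 8.26 FPKM at CT12 to 44 at CT0, while its Bmal1-/- values lay between 9.28 and 12.9, inside the WT range. Per3 (0.54 in WT, 0.13 in Bmal1-/-; adjusted p = 0.0558) and Nfil3 (0.22 and 0.02; adjusted p = 0.0604) missed the threshold. Per2, with 0.49 and 0.09, was further from it (adjusted p = 0.45). An amplitude is read from 2 cycles of 1 library per time label, so a gene that missed the threshold was not shown to swing alike in both.

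**Figure D2:**
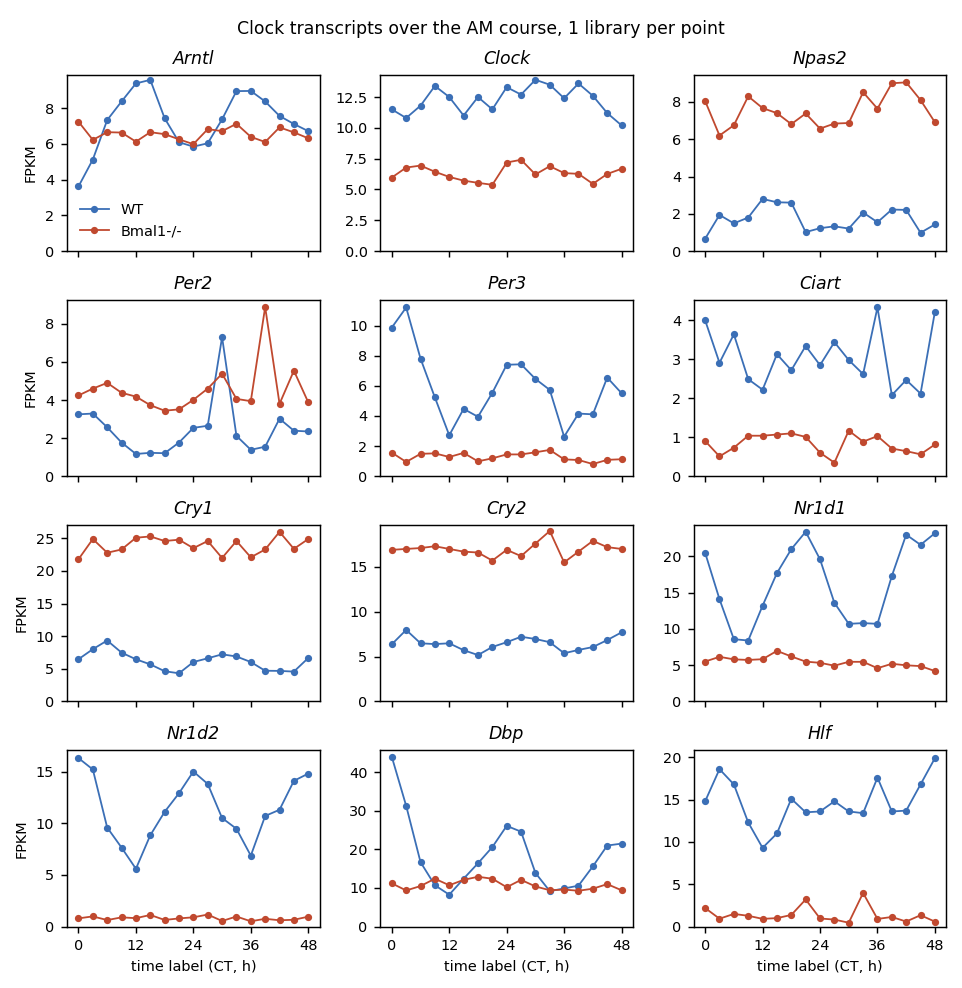
FPKM of 12 clock genes against time label (CT, h) in the AM course, 1 library per point, WT in blue and Bmal1-/- in red. Nr1d1, Dbp and Arntl swing in WT and are nearly flat in Bmal1-/-, Cry1 and Cry2 lie higher and Nr1d2 and Hlf lower in Bmal1-/- at all 17 time labels.

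Targets of p53 rose as a group. Of 20 tested, 16 were called higher and 0 lower, with a median of 2.28 against 0.02 over all genes, and 18 had every Bmal1-/- library above every WT library (17.6% of all genes). Cdkn1a, the p53-induced inhibitor of cyclin-dependent kinases (chromosome 17, 29090976 to 29100727), had a lowest, median and highest value of 1.82, 2.4 and 6.13 FPKM in WT and of 111, 124 and 139 in Bmal1-/- (5.11 ± 0.08; adjusted p = 2.92e-21). The single highest WT value came from CT36, and no WT library approached the Bmal1-/- range. Eda2r, a TNF receptor family member, rose by 3.62, Ccng1, cyclin G1, by 3.11 (21.3 ± 1.9 to 190 ± 7.01 FPKM), and the death receptor Tnfrsf10b by 3.11. Phlda3 (2.98), Mdm2, the ligase that degrades p53 (2.49), Bbc3, which encodes PUMA (2.31), Fas (2.25) and Bax (1.53) rose too. Trp53 itself differed by 0.51, and Plk2, at -0.98, was the one listed target below WT.

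Mitotic genes fell throughout. All 20 listed were called lower, from -1.04 for Cdk1 to -2.74 for Ccna2, with a median of -1.70, and 19 had every Bmal1-/- library below every WT library (16.8% of all genes). Ccna2, cyclin A2 (chromosome 3, 36564865 to 36572150), ran from 10 to 19.7 FPKM in WT and from 0.611 to 1.71 in Bmal1-/-. Top2a fell by 2.27, the checkpoint kinase Bub1b by 2.03, Kif20a by 1.94 and Mki67, the Ki-67 antigen, by 1.87. Most of these genes were low in confluent cells, and 8 were called lower when a mean of at least 5 FPKM was required and fewer were tested. Of 20 DNA replication genes 11 fell, among them Mcm5 (-1.69), Ung (-1.66) and the polymerase subunit Pole (-1.57), while Pcna was at -0.49 and Rrm1 at 0.40. Among the brakes of the cycle other than Cdkn1a, Cdkn2a, the locus of p16 and ARF, fell by 1.55 from a WT level of 628 ± 47.1 FPKM to 214 ± 10.2, Cdkn1c by 2.12 and Cdkn2c by 1.15. Cdkn2b (-0.05) and Cdkn1b (0.33) were not called, nor were the D-type kinases Cdk4 (0.08) and Cdk6 (-0.71), and Ccne2, cyclin E2, fell by 1.56.

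**Figure D3:**
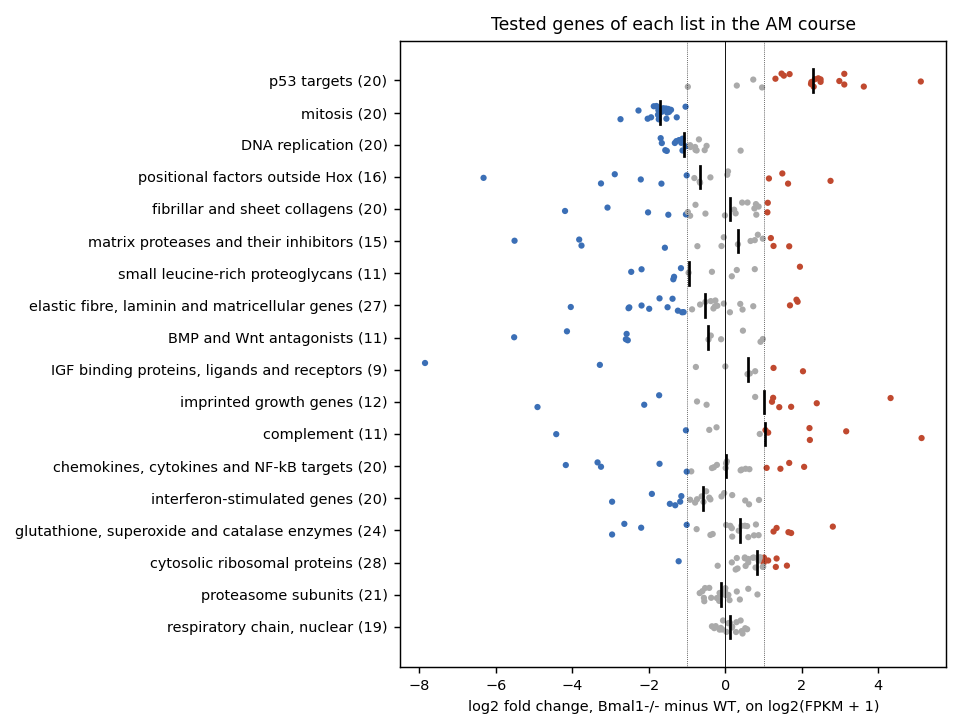
Log2 fold change (Bmal1-/- minus WT, on log2 of FPKM + 1) of every tested gene in 18 lists, with the number tested in brackets; red points were called higher, blue points lower, grey points not called, black bars mark the list median and dotted lines the 2-fold limit. The p53 targets lie mostly to the right (median 2.28), the mitotic genes to the left (median -1.70), and the proteasome and respiratory chain within the limit.

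Hox genes, which record the position of a fibroblast along the body axis, differed by paralogue number. All 6 tested genes of paralogue groups 9 and 10 fell, by between 2.0 and 5.19, across all 4 clusters. Hoxc10 (chromosome 15, 102966796 to 102971893) had a lowest, median and highest value of 33, 37.6 and 43.9 FPKM in WT and of 0, 0.0447 and 0.142 in Bmal1-/- (-5.19 ± 0.03). Hoxa9 and Hoxa10 averaged 32.3 ± 3.88 and 32.1 ± 1.81 FPKM in WT and were listed at a median of 0 in Bmal1-/-. Hoxb9 fell by 4.68 and Hoxc9 by 3.68, and Hoxd9 by 2.0, to 1.2 FPKM, which left it the highest of the 6 in Bmal1-/-. Of 8 tested genes of groups 6 to 8, Hoxa7 (-3.68) and Hoxa6 (-1.79) fell, while Hoxc6 stood at 70.9 and 73.7 FPKM, Hoxb7 at 13.1 and 15.6 and Hoxd8 at 20.9 and 17.4. Of 11 tested in groups 1 to 5, only Hoxb2 was called, and it rose by 2.21, from 0.798 ± 0.429 to 7.15 ± 0.82 FPKM. No gene of groups 11 to 13 reached the level to be tested, and the highest of their values in any library was 0.406 FPKM.

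**Figure D4:**
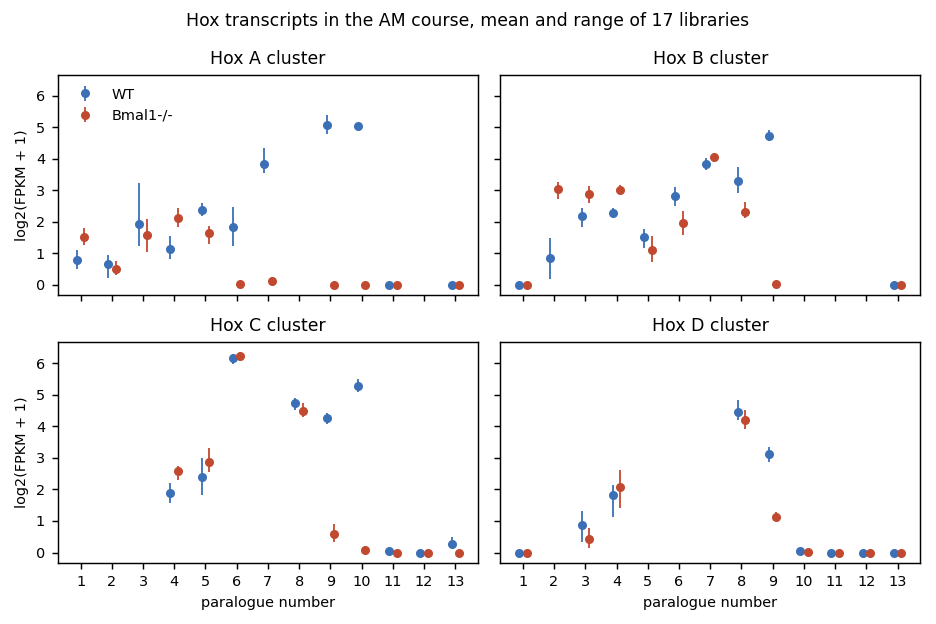
Level of each Hox gene as log2(FPKM + 1) against its paralogue number, 1 panel per cluster, WT in blue and Bmal1-/- in red, points at the mean and bars from the lowest to the highest of 17 libraries. Paralogues 9 and 10 are expressed in WT in all clusters that hold a tested copy and are near 0 in Bmal1-/- except Hoxd9, while none of the paralogues 3 to 5 was called.

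Other regional factors split in both directions, 4 higher and 6 lower of 16 tested, beside 6.87% higher and 7.87% lower among all tested genes. Zic1, a dorsal midline factor (chromosome 9, 91358058 to 91365810), ran from 71.1 to 104 FPKM in WT and from 0 to 0.299 in Bmal1-/- (-6.32 ± 0.05), and its neighbour Zic4 fell by 2.89. En1, which marks a scar-forming lineage of back skin, fell by 3.25, from 26.9 ± 2.84 to 1.94 ± 0.278 FPKM. Alx4 rose by 2.75, from at most 0.0396 FPKM in WT to between 5.09 and 6.76, and Msx1 (1.64), Tbx3 (1.49) and Emx2 (1.14) rose as well. Tbx15, a factor of trunk dermis, stood at 65.8 and 68.3 FPKM and differed by 0.05.

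The main collagens of dermis held near their WT levels, while several minor chains fell. Col1a1 differed by -0.01, Col3a1 by 0.27 and Col1a2 by -0.52. Of 20 chains tested, 5 fell and 2 rose, the falls being Col8a1 (-4.19, 30.8 ± 3.64 to 0.743 ± 0.175 FPKM), Col12a1 (-3.08), Col14a1 (-2.02), Col11a1 (-1.49) and Col7a1 (-1.03), and the rises Col6a2 (1.11) and Col15a1 (1.1). Col12a1 and Col14a1 encode chains that decorate collagen fibrils. The fibril-binding proteoglycans followed with 5 lower and 1 higher of 11, led by Ogn (-2.46) and Omd (-2.19), while Dcn, decorin, stood at 1724 and 2959 FPKM (0.77). Spp1, osteopontin, fell by 4.04 from 789 ± 74.9 to 47.2 ± 7.04 FPKM, and Mfap4 (-2.53), Tnc, tenascin C (-2.51), and Fbn2 (-2.19) fell among 11 of 27 genes of elastic fibres, laminins and matricellular proteins. Eln, elastin (1.69), Loxl2, which crosslinks collagen (1.86), and Tnxb (1.89) rose.

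Of 15 matrix-degrading enzymes and inhibitors tested, 4 fell and 3 rose, beside 7.87% lower and 6.87% higher among all tested genes, with a median of 0.33. For 8 of the 15, every Bmal1-/- library lay above every WT library, against 17.6% of all tested genes. Mmp3, stromelysin 1, had a lowest, median and highest value of 582, 853 and 1101 FPKM in WT and of 12.6, 16.5 and 23 in Bmal1-/- (-5.51 ± 0.09; adjusted p = 4.64e-21). The gelatinase Mmp9 fell by 3.82, the collagenase Mmp13 by 3.76 and Mmp11 by 1.58. Mmp2 (1615 and 1571 FPKM, -0.04) and Mmp14 (476 and 939, 0.98) were not called. The aggrecanase family member Adamts1, named after its value was seen, rose by 1.26. Of the inhibitors, Timp1 rose by 1.19 and Timp3 by 1.67, and Timp2 stood at 748 and 942 FPKM.

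Secreted regulators of growth factors also changed. The insulin-like growth factor system lost Igfbp5 and Igfbp3 (-3.28, 385 ± 55.4 to 38.8 ± 6.44 FPKM) and gained Igfbp4 (2.03, 156 ± 30.2 to 632 ± 47.6) and Igfbp6 (1.26), while Igf1 stood at 42.8 and 42.1 FPKM. Of 11 tested antagonists of BMP and Wnt signals 5 fell and 0 rose, among them Grem1 (-5.52), Chrdl1 (-4.14), Sfrp2 (-2.60) and Dkk2 (-2.58). The list of BMP, GDF and TGF-beta ligands had 4 higher and 4 lower of 12 tested. Gdf10 rose from 1.06 ± 0.55 to 61.9 ± 9.22 FPKM and Inhbb rose by 1.97, while Bmp3 fell by 3.09. Bmp1, a member of that list although it encodes a protease and not a ligand, rose by 1.31. Of the retinoid genes, Crabp1 and Crabp2 (-4.95), which carry retinoic acid, fell, and Rbp4 (2.46), which carries retinol, rose. Of 17 Wnt, Notch and Hedgehog pathway genes tested 4 rose and 2 fell. The receptors Notch1 (2.30) and Notch3 (2.20), their ligand Jag1 (1.28) and their target Hes1 (2.16) rose. Gli3, a factor of Hedgehog signals, fell by 1.38 (not called with the median of chromosome 13 subtracted), and the Wnt receptor Fzd1 fell by 1.29 on chromosome 5, whose median was -0.36. Jag1 and Fzd1 were named after their values were seen. Imprinted growth genes had 6 higher and 3 lower of 12 tested. Peg3, read from the paternal copy, rose from 0.0162 ± 0.0217 to 19.4 ± 2.28 FPKM (4.32), and H19, read from the maternal copy, fell from 70.6 ± 14 to 1.41 ± 0.655 (-4.91).

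Innate immune genes differed by branch. Of 11 complement genes tested, 6 rose and 2 fell, beside 6.87% higher and 7.87% lower among all tested genes. Cd55, which shields cells from complement, had a lowest, median and highest value of 1.07, 1.51 and 2.29 FPKM in WT and of 62.5, 89.5 and 106 in Bmal1-/-. C7 rose by 3.16 and C3 by 1.12, whereas Serping1, the C1 inhibitor, fell by 4.42, from 198 ± 16.6 to 8.29 ± 0.801 FPKM. Of 20 interferon-stimulated genes 6 fell and 0 rose, led by Ifi44 (-2.96) and Irf7 (-1.92), with a median of -0.60. Chemokines and NF-kB targets were mixed, 4 higher and 5 lower of 20, beside 6.87% higher and 7.87% lower among all tested genes. Il1rl1, the receptor of IL-33, fell by 4.17, Ccl5 by 3.34 and Cxcl10 by 3.25. Saa3, an acute-phase protein, rose by 2.06, from 1814 ± 415 to 7452 ± 875 FPKM.

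Enzymes against oxidants shifted between family members. Gpx3, the secreted glutathione peroxidase, fell by 2.64, from 1571 ± 405 to 244 ± 23 FPKM, and Gsta4 by 2.96, while Gsta3 rose by 2.81, in a list with 5 higher and 4 lower of 24. Of 13 peroxiredoxin and thioredoxin genes, Prdx6 fell by 2.33, from 288 ± 22.8 to 56.7 ± 3.46 FPKM, and Prdx5 rose by 1.01, which was 0.99 without the CT12 and CT36 pairs. These 2 calls make a share close to the 14.7% of all tested genes. Genes of cholesterol and fatty acid synthesis had 4 lower and 0 higher of 24, beside 7.87% lower among all tested genes: Scd1 (-1.28), Cyp51 (-1.24), Sc5d (-1.16) and Hmgcs1 (-1.1). With the median of its chromosome subtracted, Cyp51 stood at -0.87 and Hmgcs1 at -0.60, and neither was called. The glucocorticoid targets, of interest because every culture had received dexamethasone, had 2 higher and 2 lower of 13, beside 6.87% higher and 7.87% lower among all tested genes. Sgk1 fell by 1.70 and Errfi1 by 1.18, and Hsd11b1 (1.34) and Zbtb16 (1.21) rose.

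Genes of basic cell machinery differed by complex. None of 21 proteasome genes and none of 19 nuclear respiratory chain genes was called by limma at that limit, although 16 and 18 of them met an adjusted p under 0.05 alone. Proteasome values ran from -0.67 for Psmc2 to 0.84 for Psmb5, and respiratory chain values from -0.35 for Uqcrfs1 to 0.57 for Cox4i1. Of 28 cytosolic ribosomal protein genes 9 rose and 1 fell, beside 6.87% higher and 7.87% lower among all tested genes, with a median of 0.83. For 19 of the 28, every Bmal1-/- library lay above every WT library, against 17.6% of all tested genes. Rps19 rose by 1.61, from 393 ± 33 to 1197 ± 104 FPKM, and Rpl32 by 1.32, and Rpl5 fell by 1.22. These genes have many near-identical pseudogenes, and some common transcripts were listed at low levels in both genotypes, such as Gapdh at 2.76 and 3.67 FPKM and Rps6 at 1.32 and 1.01, so their values are uncertain. The 7 tested protein genes of the mitochondrial genome had a median of -0.81, and mt-Co1 (-1.08) and mt-Nd6 (-1.09) fell.

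Genes of some chromosomes leaned together. The median over tested genes was 0.59 on chromosome 14, where 82.9% of 414 genes were higher in Bmal1-/-, against 51.3% of all genes. It was -0.50 on chromosome 13, where 17.8% of 456 genes were higher, -0.37 on chromosome 3 and -0.36 on chromosome 5, and the other chromosomes lay between -0.12 and 0.26. The chromosome 14 median lay between 0.53 and 0.59 in each of the 17 pairs, and that of chromosome 13 between -0.54 and -0.45. On chromosomes 14, 13, 3 and 5 every stretch of 20 Mb with at least 20 tested genes had the sign of its chromosome, as it did on chromosomes 1, 2, 10, 11, 17 and 18, where the medians were smaller. Genes called higher made up 21.3% of those on chromosome 14 against 6.87% of all tested, and genes called lower 17.1% of those on chromosome 13 against 7.87%. The PM course gave medians of 0.57, -0.44, -0.40 and -0.45 for the same 4 chromosomes. With the median of its own chromosome taken from each gene, an alternative chosen after seeing the data, 823 genes were higher and 948 lower. Among the genes above that were named by rule, the calls of Hmgcs1 and Gli3 (chromosome 13), Prdx5 (0.91), Ciart (-0.74, chromosome 3), Pdgfra (-0.78), Cyp51 (-0.87) and Rpl5 (-0.85, all chromosome 5) then ended. List members given above as further examples, among them Fzd1, Bmp1 and Col6a2, were not followed under this alternative. Clock (-0.86) lies on chromosome 5, in the direction of its chromosome, and Nr1d2 lies on chromosome 14 and fell against the lean of that chromosome. The number of copies of each chromosome was not measured in these libraries.

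**Figure D5:**
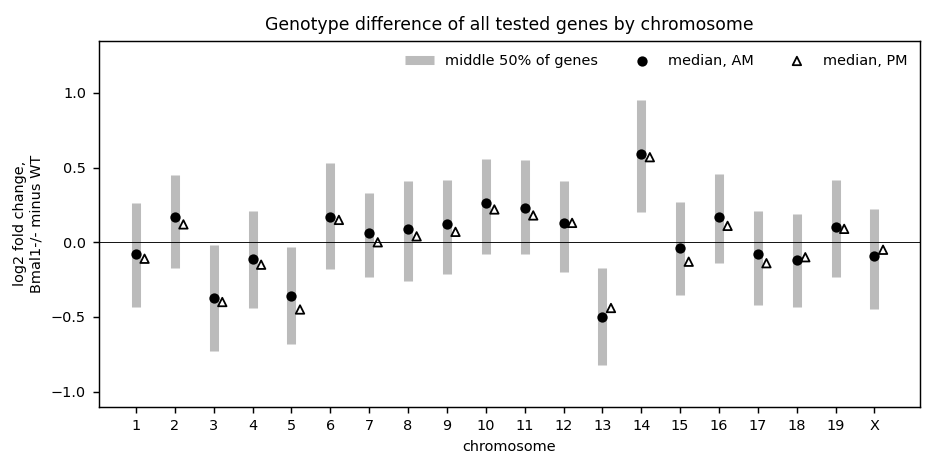
Log2 fold change (Bmal1-/- minus WT) of all tested genes by chromosome; filled circles are medians in the AM course, grey bars the middle 50% of genes, and open triangles medians in the PM course. Chromosome 14 lies at 0.59 and chromosomes 13, 3 and 5 at -0.50, -0.37 and -0.36, with the PM medians close by.

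Genotype differences were also compared between the days of the course. A test of the second day against the first called 3 of 13137 genes (0.0228%), 1 positive (0.00761%) and 2 negative (0.0152%), with 275 (2.09%) at an adjusted p under 0.05 alone and 2079 (15.8%) at an unadjusted p under 0.05. Sfrp2, a secreted Wnt antagonist, differed by -3.27 on the first day and -2.06 on the second, a change of 1.21 ± 0.21 (adjusted p = 0.00959). The other 2 were the pseudogene Gng2-ps1 and the predicted gene Gm22009, named after their values were seen. Igfbp5 stood at -8.16 and -7.69 on the 2 days, Cdkn1a at 5.28 and 4.91, and Nr1d2 at -2.64 and -2.80.

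The PM course, with 17 other libraries of each genotype, gave level differences of the same sign for most called genes. The labels do not say whether its cultures came from other cell preparations than those of the AM course. Of 1920 genes called in AM and tested over both courses, 1896 (98.8%) had the same sign in PM. The difference between courses itself was called for 115 of 13307 genes (0.864%), 61 positive (0.458%) and 54 negative (0.406%), of which 51 were protein coding and 27 were small, ribosomal or transfer RNAs, and it was called for 59 (3.07%) of the genes called in AM. An adjusted p under 0.05 alone was met by 7565 genes (56.8%), so smaller differences between the courses were common. Cdkn1a stood at 5.11 in AM and 4.73 in PM (limma adjusted p of the difference = 0.00243), Igfbp5 at -7.85 and -7.19 (adjusted p = 0.00633), Nr1d2 at -2.74 and -3.05 (adjusted p = 0.0192) and Hoxc10 at -5.19 and -5.26 (adjusted p = 0.0962). Gabra3, a GABA receptor subunit, differed by -1.81 in AM and 0.33 in PM. Its WT mean was 58.9 ± 10.1 FPKM in AM and 12.4 ± 2.56 in PM, while Bmal1-/- stood at 15.9 ± 1.83 and 15.7 ± 1.64. Clca3a2 differed by 3.66 in AM and 1.83 in PM, Lpl by 1.83 and 0.69, and Pdk4 by -1.76 and -2.92.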

How the data were processed

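Libraries were stranded, made from poly(A) RNA and read single-end, per the labels. TopHat, TopHat2 2.1.0, Cuffdiff and GRCm38 stand in the submitters' processing notes. The authors deposited FPKM per gene, as the column names say; the annotation used and any scaling between libraries: not given in the sources used here. Of 47631 gene IDs, 47217 matched GENCODE annotation of that build. Depth was estimated from the step that 1 read gives in 1357 low genes, where 93.3% of low values came out whole to a tolerance of 0.15, and no counting intervals were computed from it. No 2 libraries of the AM and PM courses held identical values.

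Levels entered as log2(FPKM + 1). Genes averaging 1 FPKM or more were fitted with limma (version 3.58.1; R 4.3.3), with the time label as block and a variance trend on intensity, and Benjamini-Hochberg adjustment ran over all genes fitted. Day and course differences were interaction terms, and rhythm an F test of the genotype difference in 24 h cosine and sine. The fits were tested on simulated data. The fold change understates the change of low genes. Deviations from the genotype means correlated above 0.1 in 2 of 17 pairs of equal time label (range -0.059 to 0.137). The labels do not say whether paired libraries shared more than the time label.

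Named are the clock genes, the 12 largest rises and 12 largest falls among called genes of 1 sign in 17 of 17 pairs, up to 4 members per list of 55 lists, up to 5 genes per direction of the interactions and the 10 genes with the smallest rhythm p. Predicted genes, Rik clones and pseudogenes were left out when genes were named by size of change, interaction or rhythm, but not from the tests. Other list members appear as examples. The comparison, the members and the gene lists were chosen with earlier results of these data known. Alternatives changed the pseudocount, the filter, the scaling, the block, the variance trend, the days and the libraries used.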

Additional observations from a re-analysis of the deposited data

Results flagged for a closer look

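The genotype difference was unequal between the AM and PM courses, by the interaction term in limma, for the named genes that follow, given as AM minus PM on the log2 scale. Gabra3 stood at -2.14 ± 0.13 (SE; adjusted p = 1.1e-15) and Clca3a2 at 1.83 ± 0.10 (adjusted p = 1.64e-16). AY036118, annotated as a long noncoding RNA, stood at 6.93, with 11 of 17 WT AM libraries listed at 0 and the others up to 10556 FPKM. The other 7 were small RNAs with many libraries at 0: Mir686 at 3.00, Snord8 at 2.74, Snora78 at 2.12, Mir5136 at -1.96, Rny3 at -3.12, mt-Tc at -2.73 and mt-Tq at -3.81. Snord8 was listed at 0 in every WT AM library and mt-Tc and mt-Tq in every Bmal1-/- AM library, so those values depend on the pseudocount.

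Sfrp2 had a genotype difference that changed between the days, by 1.21. The 24 h terms differed between genotypes for Dbp, with a WT amplitude of 0.79, Nr1d1 with 0.63, Nr1d2 with 0.50, Arntl with 0.35 and Cry1 with 0.33.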

How the results depend on the processing

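Of 2430 values of named genes under alternatives, 2382 kept their sign and side of the threshold, 37 lost the call, 6 gained it and 5 turned: Rora to 0.05 on the first day alone, Nfil3 to 0.02 on the second day alone and 0.01 without the CT12 and CT36 pairs, and Nfil3 to 0.49 and Uqcrfs1 to 0.15 with the median of their chromosome subtracted. The level calls numbered 902 higher and 1034 lower, and 631 and 617 at a mean of at least 5 FPKM, where fewer genes were tested. Without the replicate block they numbered 901 and 1035, and the differences between courses 61 and 52 against 61 and 54 with it. Rhythm differences numbered 5, and 9 with median-of-ratios scaling and 8 without a linear time term. Positive day differences numbered 1, 6 with a pseudocount of 0.1 and 3 without the CT36 pair. Differences between courses numbered 133 positive and 101 negative with a pseudocount of 0.1. Of 1320 counts of called list members under alternatives, 1259 stayed within a fixed ratio of the main count, and 61 moved past it or to or from 0. The cause of these shifts in the list, rhythm, day and course counts was not tested. Depth was estimated, and 1 library stood at each time label.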

Other observations

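Contractile genes, not described above, had 4 lower and 0 higher of 9 tested. Among all tested genes 7.87% were lower and 6.87% higher, the shares to set beside each list in this paragraph. Ankrd1, a target of stretch signals, fell by 3.17, from 15.1 ± 5.75 to 0.698 ± 0.197 FPKM, Tpm2 by 1.65, Cnn1 by 1.25 (0.98 on the log2 scale, below the limit, on the first day alone) and Tpm1 by 1.07. Genes of lipid storage had 4 higher and 1 lower of 10: Fabp4 rose by 2.28, Angptl4 by 2.0, Lpl by 1.83 and Pparg by 1.23, and Cebpa fell by 3.14, from 18.1 ± 2.64 to 1.22 ± 0.563 FPKM. The ETS factors Etv4 (-2.07), Etv5 (-1.33) and Etv1 (-1.0) fell and Ets2 rose by 1.01, in a list of 14 tested. On the first day alone Etv1 (-0.92) was not called, and Ets2 was at 0.93 on the second day alone. Ets2 also lies on chromosome 16, whose median was 0.17, in the direction of its rise and larger than the margin by which Ets2 passed the limit. Of 19 chaperone and stress genes, Trib3 (-1.66), Chac1 (-1.66), Asns (-1.45) and Hsph1 (-1.31, and -0.94 with the median of its chromosome subtracted) fell and 0 rose. In iron handling, Hfe fell by 1.83 and Steap3 by 1.26, and Ftl1, ferritin light chain, rose by 1.07, from 943 ± 55.9 to 1985 ± 155 FPKM. Of the MHC class I genes, H2-Q4 fell by 1.5 and H2-K1 by 1.03 (-0.94 on the second day alone, below the limit), and H2-T23 rose by 1.13. H2-K1 lies on chromosome 17, whose median was -0.08, in the direction of its fall and larger in size than the margin by which H2-K1 passed the limit. The MHC class I genes have near-identical copies, so reads may have been split between them.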
